A study of Rattus norvegicus with 97 samples.

Results

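Heat shock proteins and chaperones help other proteins to fold, hold unfolded chains apart and move them between compartments. The 80 genes described here are those whose only symbol in the array's annotation begins with Hspa, Hspb, Hspd, Hspe, Hsph, Dnaja, Dnajb or Dnajc, or is one of Bag1 to Bag6, the numbered Pdia genes or Cct2 to Cct8. They are 80 of the 14217 genes that the annotation names by 1 symbol. Each gene was followed with its brightest probe set, the one with the highest mean over all 97 arrays. RNA of the nucleus accumbens shell, which lies at the base of the striatum, was measured in 97 rats, with 1 Affymetrix 3' expression array for each. The rats belonged to 5 pairs of lines bred for high or for low alcohol intake. The preferring lines were P, HAD1, HAD2, AA and sP, and their non-preferring counterparts were NP, LAD1, LAD2, ANA and sNP. Lines had 10 animals each, apart from LAD1, sP and sNP with 9 each. The labels give neither sex, age nor alcohol exposure and name no transgene. Within a pair, the bred line is the only factor in the labels that sets the groups apart.

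The HSP70 proteins bind short stretches of unfolded chain and release them in a cycle driven by ATP. J proteins (the Dnaj genes) bring clients to HSP70 and speed its ATP hydrolysis, while the BAG proteins and the large HSP110 proteins help HSP70 to exchange its nucleotide. Small heat shock proteins (Hspb) hold unfolding proteins without ATP, the CCT ring folds actin and tubulin in the cytosol, and the protein disulfide isomerases (Pdia) form and rearrange disulfide bonds in the endoplasmic reticulum. In neurons, this machinery also serves transport, vesicle cycling and the assembly of the cytoskeleton. By family, the 80 genes held 39 J proteins, 9 HSP70 proteins, 3 HSP110 proteins, 7 small heat shock proteins, 7 CCT subunits, 6 BAG proteins, 5 disulfide isomerases, the 2 subunits of the mitochondrial chaperonin and 2 proteins that bind HSP70 or heat shock proteins. By compartment, assigned from textbook knowledge, 50 were cytosolic, 16 belonged to the reticulum, 8 were mitochondrial and 6 were put elsewhere or left unsure. The HSP90 genes do not have symbols of this kind. Hspa8 and Hspa1b are named in the annotation only together with another symbol, and their probe sets were not used.

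Of the 80 genes, 66 had a mean signal above the median of all probe sets and 7 lay in the dimmest 30%. The 3 brightest probe sets were those of Hsph1, an HSP110 protein, with a mean log2 signal of 13.33, of the mitochondrial chaperonin Hspd1 with 13.20 and of its co-chaperonin Hspe1 with 13.18. The 3 dimmest were those of Hspa1l at 4.39, Dnajb7 at 4.47 and the small heat shock protein Hspb3 at 5.21. Signals of different probe sets do not rank the amounts of their RNAs.

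The promoters of 5 of these genes hold letters that match known elements of the responses to folding stress, and 4 of them are shown to place those letters before the gene's start. Heat shock factors bind inverted repeats of the unit GAA, searched here as GAA, TTC and GAA with 2 bases (NN) between neighbouring units. Factors of the reticulum stress response bind CCAAT followed by CCACG, searched with 9 bases (N) between them. Both motifs were searched on both strands, and they share no unit. Of 66 of the 80 genes with an entry in the RefSeq promoter table (build GRCr8), 3 held the heat shock motif within 250 bases before the gene's start, against 164 of 27457 promoters in all (0.597%). The 3 were Hsph1 and the divergent neighbours Hspd1 and Hspe1. The reticulum motif was found before Hspa5, the reticulum's HSP70, and Dnajc3, a J protein of the reticulum, which is 2 of the 66 genes, against 21 of all promoters (0.0765%). The windows of Hspa1a, Hspb1, Dnajb1 and Bag3 held no match to the heat shock motif as spelled. The Dnajb1 window ends in letters that fit the beginning of this motif, and bases past the gene's start were not searched. The sequences run 5' to 3' on the gene's strand and end at the base before its start, with the motif in capitals. Hspe1 is on chr9:64084122-64084326 (plus strand), Hsph1 on chr12:10427163-10427367 (plus strand), Hspa5 on chr3:38452811-38453015 (plus strand) and Dnajc3 on chr15:102432462-102432666 (plus strand).
Hspe1: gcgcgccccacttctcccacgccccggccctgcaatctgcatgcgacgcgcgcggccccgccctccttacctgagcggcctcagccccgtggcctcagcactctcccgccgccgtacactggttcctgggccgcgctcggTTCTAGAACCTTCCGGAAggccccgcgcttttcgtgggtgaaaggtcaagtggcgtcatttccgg
Hsph1: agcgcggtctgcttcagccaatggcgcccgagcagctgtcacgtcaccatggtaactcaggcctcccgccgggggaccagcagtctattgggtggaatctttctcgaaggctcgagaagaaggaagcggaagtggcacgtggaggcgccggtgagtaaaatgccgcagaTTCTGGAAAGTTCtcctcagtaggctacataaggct
Hspa5: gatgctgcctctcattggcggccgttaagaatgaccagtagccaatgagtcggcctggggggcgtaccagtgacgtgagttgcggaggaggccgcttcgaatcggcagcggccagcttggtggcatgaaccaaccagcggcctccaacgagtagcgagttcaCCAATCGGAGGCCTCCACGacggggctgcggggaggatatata
Dnajc3: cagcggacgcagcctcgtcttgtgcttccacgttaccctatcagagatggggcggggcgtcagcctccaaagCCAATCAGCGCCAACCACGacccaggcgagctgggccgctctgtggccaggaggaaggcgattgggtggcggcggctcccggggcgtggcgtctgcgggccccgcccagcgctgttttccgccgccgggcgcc
In the Hspe1 window 2 overlapping matches begin 65 and 60 bases before its start. The same bases, chr9:64084262-64084279, are read on the minus strand 242 bases before the start of Hspd1, so that the genes of both subunits of the mitochondrial chaperonin flank them. In Hsph1 the match begins 36 bases before the start, in Hspa5 43 bases and in Dnajc3 133 bases. A match describes letters and does not show that a factor binds there.

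Some arrays stood apart from their labels. A score of each animal on 50 probe sets, picked in its pair for how well they separate the remaining animals, put 8 arrays more than 0.3 from their labelled end, where 1 is the preferring end and 0 the non-preferring end. HAD1 28 and AA 19 scored 0.00493 and -0.039, as non-preferring animals do, and NP 9, LAD1 37 and ANA 20 scored 1.05, 0.988 and 0.93, as preferring animals do. P 9 scored 0.463, sP 4 scored 0.399 and sNP 4 scored 0.483, between both ends. Results are given with all arrays under their labels, and without these 8 where that matters. The score rests on differences between the lines in these same data. Leaving out arrays that go against those differences therefore favours calls, and calls gained in this way are not independent support. Markers of spiny neurons, the main cells of this tissue, had a mean log2 signal between 9.59 and 13.38 on all arrays. The difference between the 3' and 5' control probe sets of Gapdh, a sign of RNA integrity, averaged 4.71 in HAD1 and 4.89 in LAD1, 2.91 in HAD2 and 2.83 in LAD2, and at most 0.47 in the other lines, so that levels are compared within pairs. P-values of the comparisons within pairs take the spread between animals of these lines as their error. Each line is a single bred population.

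Calls among the chaperones are given for each of the 5 pairs beside the share over all probe sets. A gene was called at an adjusted p under 0.05 in a limma fit of its pair, with Benjamini-Hochberg adjustment over all 31042 probe sets. One gene, Dnajb14, was called between P and NP, where 1.05% of all probe sets were called. None was called between HAD1 and LAD1, where the background was 1.2% and 4 of the 80 had an unadjusted p under 0.05 (9.89% of all probe sets). None was called between HAD2 and LAD2 either, where the background was 4.6% and 10 of the 80 had an unadjusted p under 0.05 (14% of all probe sets). One gene, Cct6a, was called between AA and ANA, with a background of 2.35%. Between sP and sNP 9 of the 80 rose and 3 fell, where 7.08% of all probe sets rose and 5.83% fell (12.9% in all), and 15.1% of genes were called by their brightest probe set. These counts lie near the background of each pair, apart from that of HAD2 and LAD2, which lies below it. No chaperone was called in 2 or more pairs, and 66 were called in none. No brightest probe set of a chaperone had lines without overlap in any pair, whereas 0.0419% of all probe sets had none between P and NP, 0.00966% between HAD1 and LAD1, 0.918% between HAD2 and LAD2, 0.158% between AA and ANA and 0.49% between sP and sNP. Without the 8 arrays that stood apart, 3 were called between P and NP (1.96% of all genes by their brightest probe set), 1 between HAD1 and LAD1 (3.5%), 4 between AA and ANA (3.85%) and 15 between sP and sNP (17.7%). HAD2 and LAD2 hold none of these arrays and stayed at 0 (4.47%).

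The median difference of the 80 genes was 0.01 on the log2 scale for P minus NP, -0.01 for HAD1 minus LAD1, 0.00 for HAD2 minus LAD2, 0.00 for AA minus ANA and 0.04 for sP minus sNP. Over all genes the same medians lay between -0.01 and 0.01. Between P and NP 69 of the 80 lay within 0.1 of no difference, against 37 of 80 between sP and sNP. The median size of a difference, sign aside, was 0.11 between sP and sNP for the chaperones and 0.09 for all genes.

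Between sP and sNP 9 of 50 cytosolic, 2 of 16 reticulum, 0 of 8 mitochondrial and 1 of 6 other chaperones were called, where 15.1% of all genes were. By family, 6 of 39 J proteins, 2 of 6 BAG proteins, 2 of 5 disulfide isomerases, 1 of 9 HSP70 proteins and 1 of 3 HSP110 proteins were called in that pair, and no CCT subunit. None of 7 small heat shock proteins was called in any pair. Differences of the 8 mitochondrial genes ran from -0.21 to 0.13 for P minus NP, from -0.16 to 0.03 for HAD1 minus LAD1, from -0.08 to 0.05 for HAD2 minus LAD2, from -0.03 to 0.14 for AA minus ANA and from -0.09 to 0.16 for sP minus sNP. Differences of the 16 reticulum genes ran from -0.14 to 0.41 for P minus NP, from -0.10 to 0.32 for HAD1 minus LAD1, from -0.20 to 0.63 for HAD2 minus LAD2, from -0.08 to 0.30 for AA minus ANA and from -0.17 to 0.21 for sP minus sNP. Dnajb14 has the upper end in P minus NP and in HAD2 minus LAD2.

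**Figure D1:**
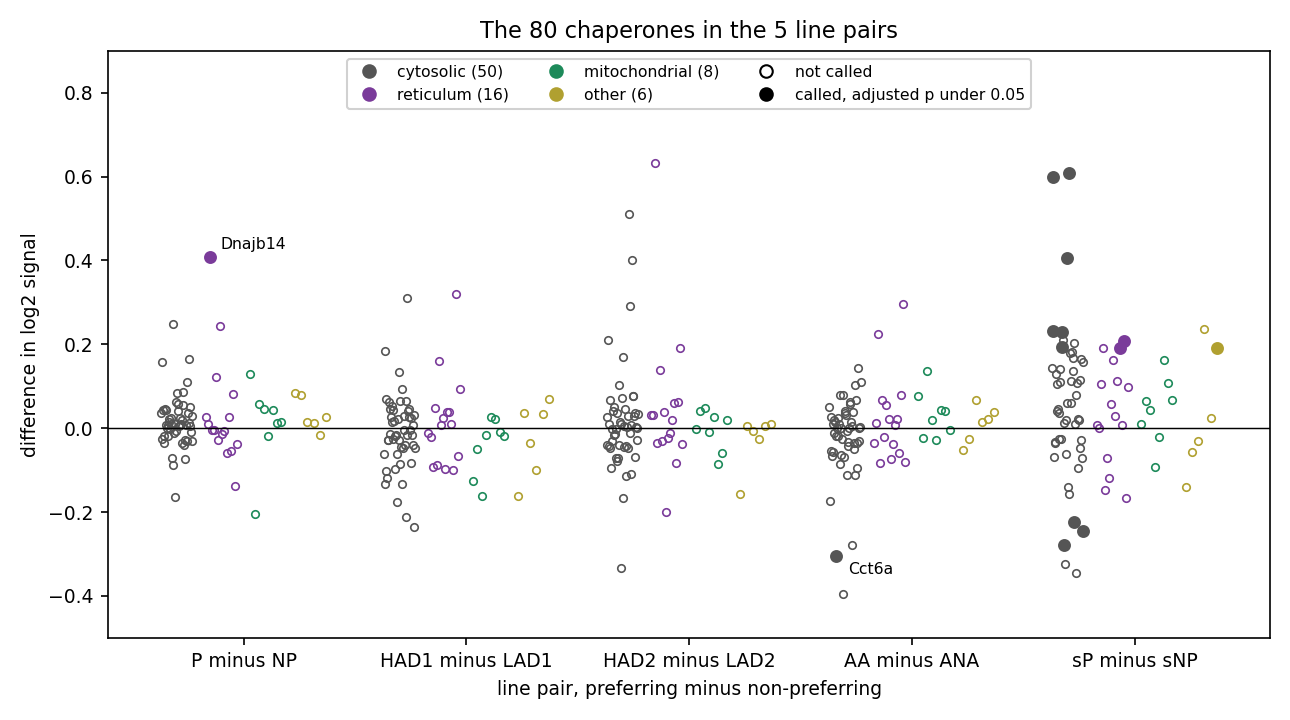
Differences in log2 signal between preferring and non-preferring line for the 80 chaperones in the 5 pairs, coloured by compartment; each point is the brightest probe set of a gene, filled where its adjusted p was under 0.05. Filled points are Dnajb14 (0.41) in P minus NP, Cct6a (-0.30) in AA minus ANA and 12 genes in sP minus sNP.

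Among 50 cytosolic chaperones, 6 were called higher in sP rats than in sNP rats and 3 were called lower. The 6 that rose were the BAG proteins Bag2 and Bag3 and the J proteins Dnaja4, Dnajb1, Dnajc12 and Dnajc21. Those that fell were Hsph1, Hspa14, an HSP70 relative that works at the ribosome in human cells, and the J protein Dnajb3. Differences were modest, from -0.28 to 0.61 on the log2 scale.

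Bag3, an exchange factor known for handing misfolded clients to autophagy, had log2 signals of 8.90, 9.09 and 9.74 (lowest, median and highest) in sP rats, against 8.09, 8.69 and 9.09 in sNP rats. All 9 sP rats lay above the sNP median, although the ranges met. The difference was 0.60 ± 0.15 (SE), a 1.52-fold rise (limma adjusted p = 0.0204). Bag2, which restrains the ubiquitin ligase Stub1 on HSP70, had 8.69, 8.91 and 9.17 in sP rats, against 8.39, 8.61 and 8.95 in sNP rats. Its difference was 0.23 ± 0.076 (limma adjusted p = 0.0492), just inside the threshold. Dnajb1, the main stress-inducible J partner of cytosolic HSP70, had 11.02, 11.17 and 11.37 in sP rats, against 10.71, 10.91 and 11.11 in sNP rats. Again 9 of 9 sP rats lay above the sNP median, and the difference was 0.23 ± 0.055 (limma adjusted p = 0.0192).

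Dnajc21, a J protein of ribosome assembly, showed the largest rise. Its log2 signals were 8.27, 8.71 and 9.23 in sP rats, against 7.52, 8.24 and 8.80 in sNP rats, a difference of 0.61 ± 0.16 or 1.52-fold (limma adjusted p = 0.029). Dnajc12, which accompanies the aromatic amino acid hydroxylases, had 11.02, 11.35 and 11.76 in sP rats, against 10.50, 11.04 and 11.33 in sNP rats. Its difference was 0.40 ± 0.13 (limma adjusted p = 0.0418), with 8 of 9 sP rats above the sNP median. Dnaja4 differed by 0.19 ± 0.061 (limma adjusted p = 0.044).

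Hsph1, whose promoter is shown above, fell. It had 12.71, 13.09 and 13.23 in sP rats, against 13.09, 13.28 and 13.36 in sNP rats, a difference of -0.25 ± 0.072 (limma adjusted p = 0.0368). All 9 sP rats lay below the sNP median, and both of its probe sets were called lower. Hspa14 had 9.61, 9.80 and 10.09 in sP rats, against 9.86, 10.03 and 10.26 in sNP rats, with a difference of -0.22 ± 0.060 (limma adjusted p = 0.0301). Dnajb3 had 7.13, 7.41 and 7.62 in sP rats, against 7.43, 7.64 and 7.89 in sNP rats, with a difference of -0.28 ± 0.067 (limma adjusted p = 0.0195), and 9 of 9 sP rats lay below the sNP median. Just outside the threshold lay the J protein Dnajb5 at -0.32 (limma adjusted p = 0.0501) and Hspa2, an HSP70 protein known from the testis, at -0.34 (limma adjusted p = 0.0667). Hspa4, another HSP110 exchange factor, differed by 0.08 in this pair and by between -0.11 and 0.04 in the others, and Dnaja1, an abundant cytosolic J protein, by 0.14 in this pair and by between -0.01 and 0.05 in the others, and neither was called in any pair.

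Among the other chaperones, the disulfide isomerases Pdia4 (0.21 ± 0.065, limma adjusted p = 0.0423) and Pdia2 (0.19 ± 0.063, limma adjusted p = 0.0497) rose, as did Dnajc6 (0.19 ± 0.058, limma adjusted p = 0.0407). The Pdia2 probe set was dim, with a mean log2 signal of 5.89, and its call was lost in 16 of 18 fits that left out 1 rat. Dnajc6 is auxilin, which strips clathrin from synaptic vesicles. No mitochondrial chaperone was called in this pair.

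**Figure D2:**
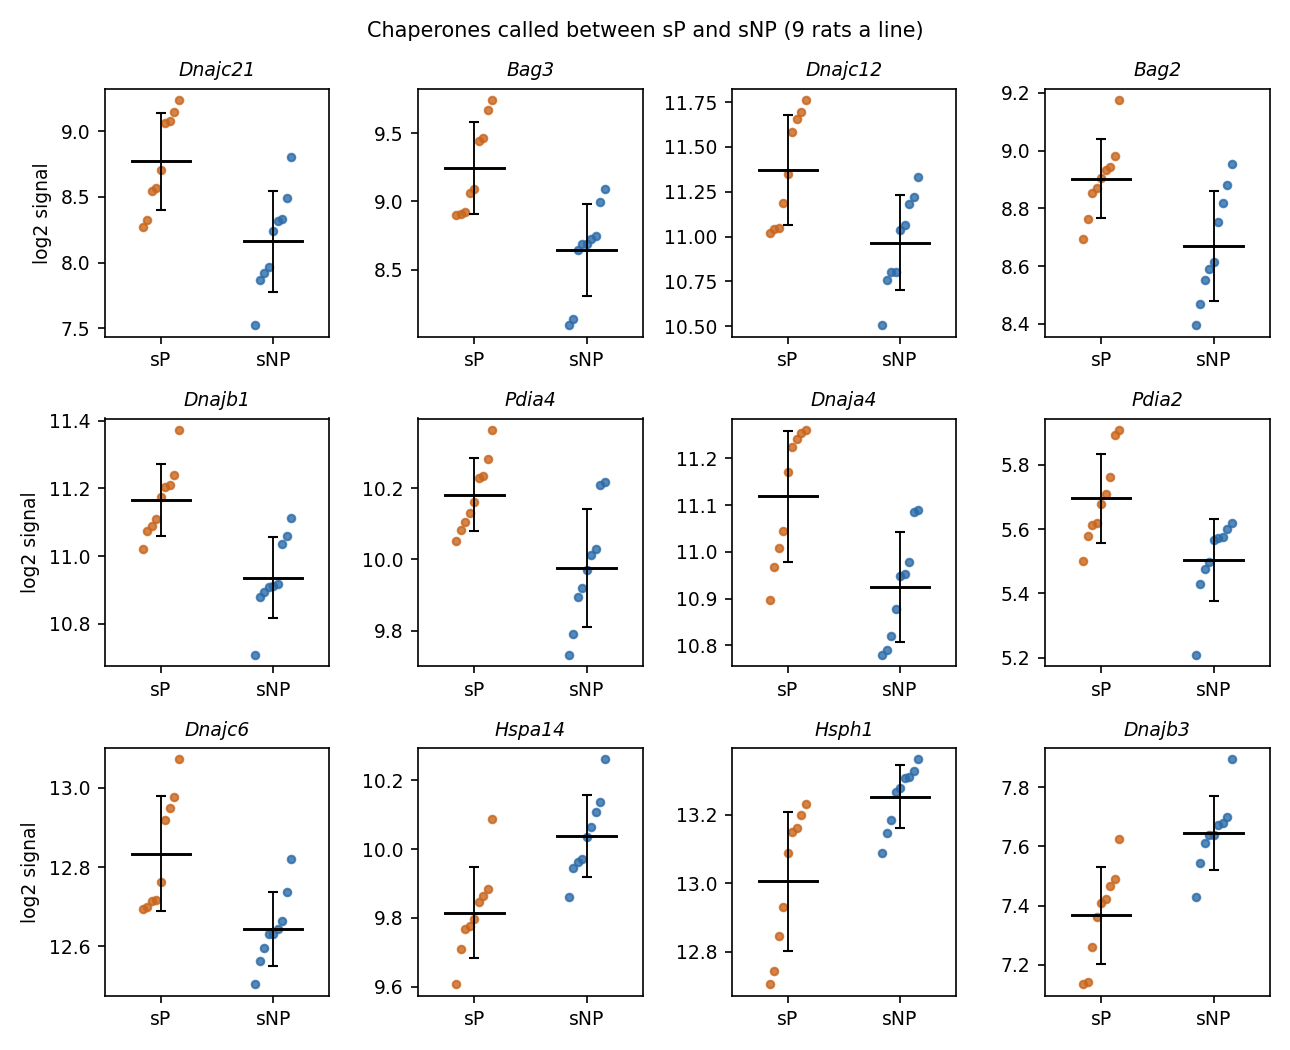
Log2 signal of the 12 chaperones called between sP (orange) and sNP (blue); each point is a rat, the black bar is the mean and the whiskers are 1 SD (n = 9 each). The lines overlap for every gene, and Bag3 lies between 8.90 and 9.74 in sP rats and between 8.09 and 9.09 in sNP rats.

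Markers of the cell types in the tissue moved with these differences. A marker index, the mean of spiny neuron markers minus that of pallidal, septal and basal forebrain markers, was 3.29 ± 1.10 in sP rats and 4.64 ± 0.63 in sNP rats (SD, n = 9 each). Of 11 measured spiny neuron markers 9 were called lower in sP rats, and the list's mean signal ran from 10.25 to 12.48 per sP rat, against 11.74 to 12.73 per sNP rat. Of 5 measured pallidal, septal and forebrain markers 1 was called higher, with a mean of 7.77 to 8.41 in sP rats, against 7.34 to 8.17 in sNP rats. Some other lists moved as well. Of 8 markers for pericytes, smooth muscle cells and meninges 2 were called higher, with a mean of 7.999 to 8.80 per sP rat, against 7.73 to 8.47 per sNP rat. Of 6 endothelial markers 2 were called lower, with a mean of 9.10 to 9.48 per sP rat, against 9.39 to 9.59 per sNP rat. Of 7 astrocyte markers 2 were called higher, Gfap (0.52) and Aldh1l1 (0.22), but the list's median difference was 0.01, as over all genes. Its Slc1a2, Gja1 and S100b went the other way without being called, at -0.25, -0.07 and -0.01. Of 8 oligodendrocyte markers 1 was called higher, with a list median of 0.18, and none of 9 microglial markers was called. In bulk tissue, fewer cells of a type and less RNA per cell cannot be told apart. With the index as a covariate in the limma fit, none of the 80 chaperones was called and 289 probe sets in all (0.931%). The difference of Bag3 was then 0.15, that of Hsph1 -0.03 and that of Dnajc12 0.02, whereas Pdia2 stood at 0.22 without being called (limma adjusted p = 0.45). In the other pairs the index as a covariate gave 5 calls between P and NP (2.88% of all probe sets), 0 between HAD1 and LAD1 (0.0805%), 3 between HAD2 and LAD2 (5.89%) and 1 between AA and ANA (3.34%). The Gapdh difference was 0.40 ± 0.058 in sP rats and 0.47 ± 0.14 in sNP rats (SD, n = 9 each). With it as a covariate, none was called between sP and sNP, and 863 probe sets in all (2.78%). Bag3, Dnajb1 and Dnajb3 were called in each of 18 fits that left out 1 rat, while the count of called chaperones ran from 3 to 20.

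Of the cytosolic ring chaperonin, 6 of 7 measured CCT subunits were called in no pair, and Cct6a, its zeta subunit, was called lower in AA rats. Cct6a fell to log2 signals of 11.42, 11.79 and 12.13 (lowest, median and highest) in AA rats, against 11.998, 12.08 and 12.14 in ANA rats. In all, 9 of 10 AA rats lay below the lowest ANA rat, and AA rats were spread more widely (SD 0.22, against 0.043 in ANA rats). The difference was -0.30 ± 0.071 (limma adjusted p = 0.0206), and without AA 19 and ANA 20 it was -0.32 (limma adjusted p = 0.0129). Its dimmer probe set differed by -0.19 ± 0.059 without being called (limma adjusted p = 0.109). In the other 4 pairs Cct6a differed by between -0.03 and 0.05, and an F test that its 5 differences are equal gave a limma adjusted p of 0.000266. Cct2, another subunit of the ring, differed by between -0.06 and 0.13 over the 5 pairs.

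Among reticulum chaperones, Dnajb14 had the largest difference in P minus NP and in HAD2 minus LAD2. It is a J protein of the reticulum membrane that recruits cytosolic HSP70 for the disposal of misfolded membrane proteins. P rats had log2 signals of 10.44, 10.62 and 10.86, against 9.87, 10.25 and 10.58 in NP rats. All 10 P rats lay above the NP median, and the difference was 0.41 ± 0.086, or 1.326-fold (limma adjusted p = 0.019). Its 2 dimmer probe sets had the same sign without being called, at 0.22 (limma adjusted p = 0.162) and 0.05 (limma adjusted p = 1). With the Gapdh difference as a covariate the call was lost (0.38, limma adjusted p = 0.068), as it was in 1 fit of all 10 lines (limma adjusted p = 0.12).

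HAD2 rats had Dnajb14 signals of 9.62, 10.23 and 10.66, against 8.67, 9.65 and 10.17 in LAD2 rats. Although 9 of 10 HAD2 rats lay above the LAD2 median, the difference of 0.63 ± 0.19 missed the threshold (limma adjusted p = 0.0558). Its 2 dimmer probe sets differed by 0.02 and by 0.00 in this pair. The brightest set crossed the threshold when 1 of HAD2 9, HAD2 10, LAD2 11, LAD2 12, LAD2 13 or LAD2 16 was left out. The difference was 0.22 ± 0.12 for AA minus ANA, 0.11 ± 0.085 for sP minus sNP and -0.09 ± 0.15 for HAD1 minus LAD1, and none of these was called. The F test over pairs gave Dnajb14 an adjusted p of 0.0445, and 0.051 without the arrays that stood apart.

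Pdia4 differed between HAD1 and LAD1 by 0.32 ± 0.092, with 10 of 10 HAD1 rats above the LAD1 median, but was not called (limma adjusted p = 0.105). HAD1 rats had 8.92, 9.10 and 9.34, against 8.47, 8.73 and 9.34 in LAD1 rats. Without HAD1 28 and LAD1 37, which were picked for going against the difference between the lines, it was 0.41 and was called (limma adjusted p = 0.00204). It was also called without LAD1 37 alone. On the other side, the largest decrease in this pair was that of Hspbap1, which binds the small heat shock protein Hspb1, at -0.24 ± 0.077 (limma adjusted p = 0.183). HAD1 rats had Hspbap1 signals of 8.03, 8.20 and 8.74, against 8.32, 8.53 and 8.69 in LAD1 rats, and without HAD1 25 it was called.

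Hspa5, whose promoter holds the reticulum motif, differed by between -0.06 and 0.11 over the 5 pairs and was called in none. Pdia3, which folds glycoproteins with calreticulin and calnexin, differed by between -0.10 and 0.01. A dimmer probe set of Pdia3 was called lower in HAD2 rats (-0.19 ± 0.054, limma adjusted p = 0.0391), whereas its brightest set differed by -0.08 (limma adjusted p = 0.725). Dnajc18, a reticulum membrane J protein, differed by 0.24 for P minus NP (limma adjusted p = 0.0504) and by -0.20 for HAD2 minus LAD2 (limma adjusted p = 0.0542), and the F test over pairs called it (limma adjusted p = 0.000641).

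By their brightest probe sets, none of 8 mitochondrial chaperones was called in any pair, where 1.05% to 12.9% of all probe sets were called. The median size of their differences, sign aside, was 0.045 between P and NP, as for all genes. In the other pairs it ran from 0.025 to 0.065, against 0.049 to 0.090 for all genes. Hspd1 and Hspe1, which flank the matched bases shown above, differed by -0.06 to 0.11 and by -0.02 to 0.07 over the 5 pairs. Dnajc11, a J protein of the mitochondrial membranes, differed by -0.21 ± 0.057 between P and NP (limma adjusted p = 0.105). A dimmer probe set of Dnajc11 was called lower in P rats (-0.22 ± 0.049, limma adjusted p = 0.0274), and the F test over pairs called this set too (limma adjusted p = 0.0096).

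The probe sets of Hspa9, the HSP70 of the mitochondrial matrix that pulls in imported proteins, went different ways. The brightest set differed by between -0.08 and 0.16 and was called in no pair. One dimmer set had log2 signals of 7.53, 7.81 and 8.69 in HAD2 rats, against 9.58, 9.73 and 9.95 in LAD2 rats, so that the lines did not overlap, as for 0.918% of all probe sets in that pair. It fell by 1.84 in HAD2 rats (limma adjusted p = 8.54e-11). In P rats the same set was higher, at 7.04, 8.07 and 8.99, against 6.68, 6.86 and 7.43 in NP rats, a difference of 0.99 ± 0.19 (limma adjusted p = 0.00902).

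Within some lines the dimmer Hspa9 set fell into separate levels. Of AA rats, 4 lay between 6.84 and 7.10 and the other 6 between 8.14 and 9.10, whereas 9 of 10 ANA rats lay between 6.61 and 7.15 and ANA 20 stood at 9.07. Of HAD1 rats, 3 lay between 7.56 and 7.88 and 7 between 8.85 and 9.72, while LAD1 rats had 7.24 to 8.15 apart from LAD1 37 at 8.91. Both arrays that stand out in the non-preferring lines are among those that stood apart from their labels. In sP rats it ran from 8.66 to 9.09, against 8.15 to 9.21 in sNP rats. The F test over pairs gave this probe set an adjusted p of 4.24e-12. The other 2 sets of Hspa9 were called in no pair, so that 1 of 4 probe sets was called.

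**Figure D3:**
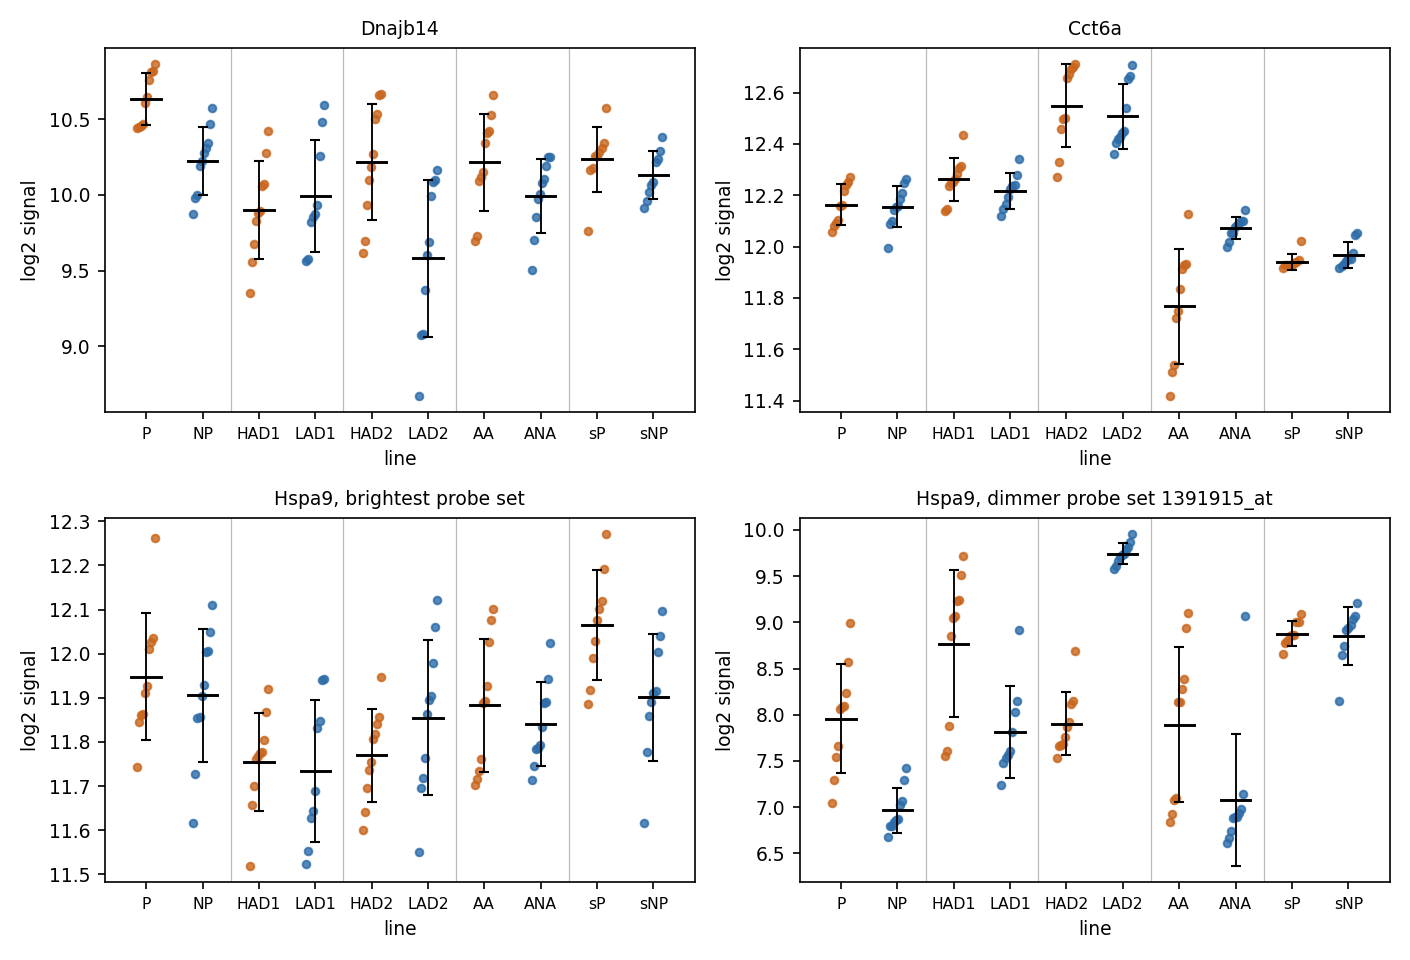
Log2 signal of Dnajb14, Cct6a and 2 probe sets of Hspa9 in the 10 lines; each point is a rat, orange for preferring and blue for non-preferring lines, with the mean (bar) and 1 SD (whiskers). The dimmer Hspa9 set runs from 7.53 to 8.69 in HAD2 rats and from 9.58 to 9.95 in LAD2 rats, while the brightest set differs by -0.08 in that pair.

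Averaged over the 5 pairs, Dnajb14 (0.26 ± 0.063, limma adjusted p = 0.00578), Pdia4 (0.15 ± 0.037, limma adjusted p = 0.00646) and Bag3 (0.24 ± 0.068, limma adjusted p = 0.0302) were higher in preferring rats. They were 3 of the 80, all higher, against 3.37% of all probe sets called and 1.78% called higher. Bag3 and Pdia4 were higher in each of the 5 pairs, and Dnajb14 in 4 of 5. The rise of Bag3 was largest between sP and sNP, at 0.60. It was 0.16 between P and NP, 0.18 between HAD1 and LAD1 and 0.21 between HAD2 and LAD2. AA and ANA rats had nearly the same mean Bag3 signal, at 8.86 and 8.84. A dimmer probe set of Pdia3 was called lower on average (-0.10 ± 0.030, limma adjusted p = 0.0272) and was lower in each of the 5 pairs, while the brightest set of Pdia3 was not called. The calls of the 3 genes held with the marker index as a covariate, where Bag3 averaged 0.14, Pdia4 0.11 and Dnajb14 0.25, and without the arrays that stood apart (4.94% of all probe sets). With the mean of its 3 probe sets in place of the brightest, Dnajb14 averaged 0.11 and was still called (limma adjusted p = 0.0044). Its dimmer sets alone averaged 0.06 (limma adjusted p = 0.349) and 0.03 (limma adjusted p = 0.736), and both were lower in sP than in sNP rats, at -0.08 and -0.02. This average takes the spread between animals as its error. With the 5 differences of line means as replicates, limma called none of the 80 and none of 31042 probe sets, and the 3 genes had unadjusted p-values of 0.047, 0.0155 and 0.0259 (3 of 80, against 3.91% of all probe sets). In all, 6 chaperones were higher in 5 of 5 pairs and 3 were lower, where the background was 3.06% and 3.24%. The higher ones were Bag3, Dnajb1, Dnajc6, Hspb3, Pdia2 and Pdia4, and the lower ones Bag5, Dnaja2 and Dnajb5. Of these, Hspb3 and Pdia2 lay in the dimmest 30% of probe sets.

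The F test that the 5 differences are equal called 9 of the 80 genes, where it called 11.7% of all probe sets, and 11 of the 80 without the arrays that stood apart (17.5%). The 9 were Bag2, Cct6a, Dnajb14, Dnajb3, Dnajc11, Dnajc18, Hspa14, Hspa1a and Pdia5. Pdia5, a disulfide isomerase, differed by 0.30 for AA minus ANA and 0.19 for HAD2 minus LAD2, but by -0.17 for sP minus sNP and -0.14 for P minus NP (limma adjusted p = 0.000996 for the F test). Dnajb3 differed by 0.25 for P minus NP and by -0.28 for sP minus sNP (limma adjusted p = 0.00203 for the F test).

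Hspa1a, the stress-inducible HSP70 of the cytosol, varied widely among HAD2 rats (SD 0.90, against 0.10 in LAD2 rats). Its probe set may also read the near-identical Hspa1b. HAD2 rats had log2 signals of 7.26, 7.59 and 10.12, against 7.34, 7.48 and 7.65 in LAD2 rats. In all, 4 HAD2 rats lay above the highest LAD2 rat, with animal 5 at 10.12, animal 3 at 8.83, animal 2 at 8.32 and animal 4 at 7.903. The difference of 0.51 ± 0.26 was not called (limma adjusted p = 0.403), and without animal 5 it was 0.27. Animal 5 also had the highest Dnajb1 signal of its line, at 12.58, with a range of 11.81 to 12.54 in the other HAD2 rats, and the lowest Hsph1 signal, at 13.31. The small heat shock protein Hspb1 stood at 8.18 in animal 5 and 8.32 in animal 3, and between 7.09 and 7.61 in the other HAD2 rats. The Gapdh difference was 3.5999 in animal 3, the highest of its line, and 3.31 in animal 5, where the line averaged 2.91. Over all 97 rats, centred on their lines, Hspb1 correlated with the Gapdh difference (Pearson r = 0.378, permutation p = 0.00097, adjusted p = 0.00255; Spearman rho = 0.311, permutation p = 0.00269, adjusted p = 0.00706). Within HAD2 and LAD2 that r was 0.583, within the other pairs it lay between 0.123 and 0.703, and it was 0.312 without HAD2 3 and LAD2 18. The 0.703 was that of AA and ANA. In that pair AA 19 and ANA 20, which stood apart from their labels, had the highest Gapdh differences (0.54 and 0.40). They also had its highest Hspb1 signals (8.095 and 8.097), and r without them was not computed. For Hspa1a the correlation with the Gapdh difference was 0.494 within HAD2 and LAD2 and 0.25 over all rats (permutation p = 0.143, adjusted p = 0.215). The part of RNA integrity in these values was not tested.

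Hspb1 differed by 0.40 ± 0.13 for HAD2 minus LAD2 without being called (limma adjusted p = 0.092). In the same pair Dnajc12 had the largest decrease, at -0.33 ± 0.13 (limma adjusted p = 0.21), with 9.92, 10.33 and 10.76 in HAD2 rats, against 10.08, 10.63 and 11.14 in LAD2 rats.

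Markers of other cells moved in that pair too. Of 8 oligodendrocyte markers 5 were called lower in HAD2 rats, with a mean of 11.41 to 11.79 per HAD2 rat, against 11.68 to 12.32 per LAD2 rat. Of 8 markers for pericytes, smooth muscle cells and meninges 3 were called higher, with a mean of 7.51 to 8.08 per HAD2 rat, against 7.38 to 7.76 per LAD2 rat. Of 6 endothelial markers 3 were called lower, with a mean of 9.31 to 9.61 per HAD2 rat, against 9.38 to 9.78 per LAD2 rat. Of 9 microglial markers 1 was called higher and 2 lower, with a mean of 9.02 to 9.39 per HAD2 rat, against 9.08 to 9.47 per LAD2 rat. Their part in the values of Hspb1 and Dnajc12 was not tested.

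AA rats had Hspa1a signals of 6.27, 6.43 and 6.76, against 6.17, 6.75 and 7.03 in ANA rats. The lines overlapped, and the difference was -0.28 ± 0.092 (limma adjusted p = 0.157). Without AA 19 and ANA 20 that difference was -0.36 and was called (limma adjusted p = 0.00769), as it was without ANA 20 alone. Both arrays were picked for going against the difference between the lines, which favours such a call.

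**Figure D4:**
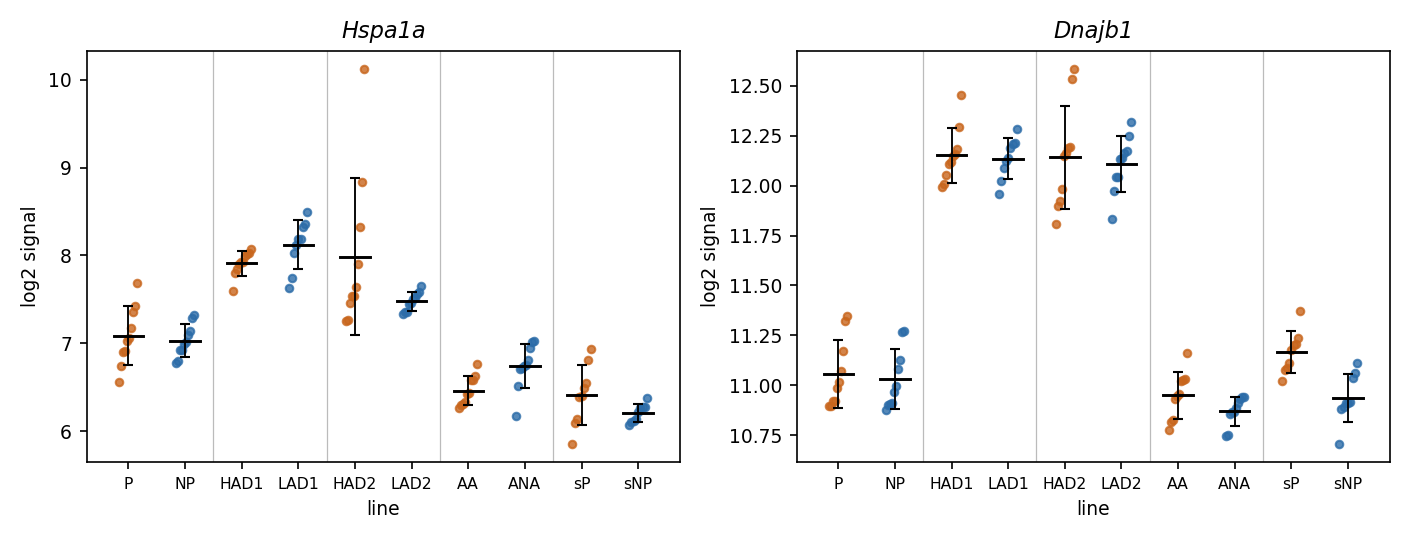
Log2 signal of Hspa1a (left) and Dnajb1 (right) in the 10 lines; each point is a rat, orange for preferring and blue for non-preferring lines, with the mean (bar) and 1 SD (whiskers). Hspa1a reaches 10.12 in 1 HAD2 rat, against at most 7.65 in LAD2 rats.

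Across the 97 rats, with each value centred on the mean of its line, 21 relations were computed, with 100000 permutations within lines and Benjamini-Hochberg adjustment over the 21. Hspa1a and Dnajb1 rose and fell together (Pearson r = 0.553, permutation p = 2e-05, adjusted p = 8.4e-05; Spearman rho = 0.513, permutation p = 1e-05, adjusted p = 4.2e-05). Without HAD2 5 and HAD2 3, the animals farthest from the median of Hspa1a, r was 0.492. Within pairs it was 0.73 in P and NP, 0.10 in HAD1 and LAD1, 0.69 in HAD2 and LAD2, 0.30 in AA and ANA and 0.35 in sP and sNP. Both also ran against the marker index. Dnajb1 had r = -0.392 with the index (permutation p = 0.00015, adjusted p = 0.00045; rho = -0.372, permutation p = 0.00039, adjusted p = 0.00117), and -0.745 within P and NP. Without HAD2 5 and HAD2 2 it was -0.424, and within the other pairs it lay between -0.673 and 0.32. Hspa1a had r = -0.218 with the index (permutation p = 0.0147, adjusted p = 0.0309; rho = -0.255, permutation p = 0.0175, adjusted p = 0.0333), and -0.668 within P and NP. Without HAD2 5 and HAD2 3 it was -0.307, and within the other pairs it lay between -0.392 and 0.223.

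Hspa1a and Hspb1 had r = 0.304 (permutation p = 0.0186, adjusted p = 0.0355; Spearman rho = 0.182, permutation p = 0.0929, adjusted p = 0.139). That relation rests on HAD2 5 and HAD2 3, without which r was 0.124. Hsph1 ran against Dnajb1 (r = -0.392, permutation p = 0.00013, adjusted p = 0.00045; rho = -0.388, permutation p = 0.00025, adjusted p = 0.000875). It also ran against Hspa1a (r = -0.303, permutation p = 0.0022, adjusted p = 0.00513; rho = -0.288, permutation p = 0.00819, adjusted p = 0.0191). Dnajb1 and Hspb1 had r = -0.00329, and within pairs between -0.568 (sP and sNP) and 0.445 (AA and ANA). Bag3 had r = 0.215 with Dnajb1 (permutation adjusted p = 0.0642), with rho = 0.251 (permutation adjusted p = 0.0333). Within pairs that r lay between -0.392 (HAD1 and LAD1) and 0.813 (sP and sNP). With Hspa1a, Bag3 had r = 0.111 (permutation adjusted p = 0.281), with rho = 0.234 (permutation adjusted p = 0.0409). Within pairs this r lay between -0.555 (HAD1 and LAD1) and 0.747 (P and NP).

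Hsph1 followed the marker index closely (r = 0.864, permutation p = 1e-05, adjusted p = 5.25e-05; rho = 0.854, permutation p = 1e-05, adjusted p = 4.2e-05), and r was 0.857 without NP 5 and sP 2. Within pairs r was 0.95 in P and NP, 0.40 in HAD1 and LAD1, 0.60 in HAD2 and LAD2, 0.86 in AA and ANA and 0.91 in sP and sNP. Bag3 ran the other way (r = -0.779, permutation p = 1e-05, adjusted p = 5.25e-05; rho = -0.794, permutation p = 1e-05, adjusted p = 4.2e-05), and r was -0.776 without P 5 and LAD2 20. Within pairs r was -0.93 in P and NP, -0.27 in HAD1 and LAD1, -0.75 in HAD2 and LAD2, -0.72 in AA and ANA and -0.87 in sP and sNP. Hsph1 and Bag3 were opposed to each other (r = -0.655, permutation p = 1e-05, adjusted p = 5.25e-05; rho = -0.658, permutation p = 1e-05, adjusted p = 4.2e-05), with r = -0.635 without NP 5 and sP 2. In HAD1 and LAD1, whose index varied least (SD 0.31 and 0.28), that r was 0.11, against -0.88 in P and NP, -0.44 in HAD2 and LAD2, -0.57 in AA and ANA and -0.82 in sP and sNP. The permutation p of 1e-05 is the smallest that 100000 permutations can give.

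Hspd1 and Hspe1, compared because they flank the same matched bases, correlated at r = 0.586 (permutation p = 1e-05, adjusted p = 5.25e-05; rho = 0.585, permutation p = 1e-05, adjusted p = 4.2e-05), with r = 0.627 without AA 19 and P 5. Within pairs r was 0.87 in P and NP, 0.15 in HAD1 and LAD1, 0.30 in HAD2 and LAD2, 0.36 in AA and ANA and 0.75 in sP and sNP. Their relation to the marker index was not computed, and the part of the shared bases in this correlation was not tested.

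**Figure D5:**
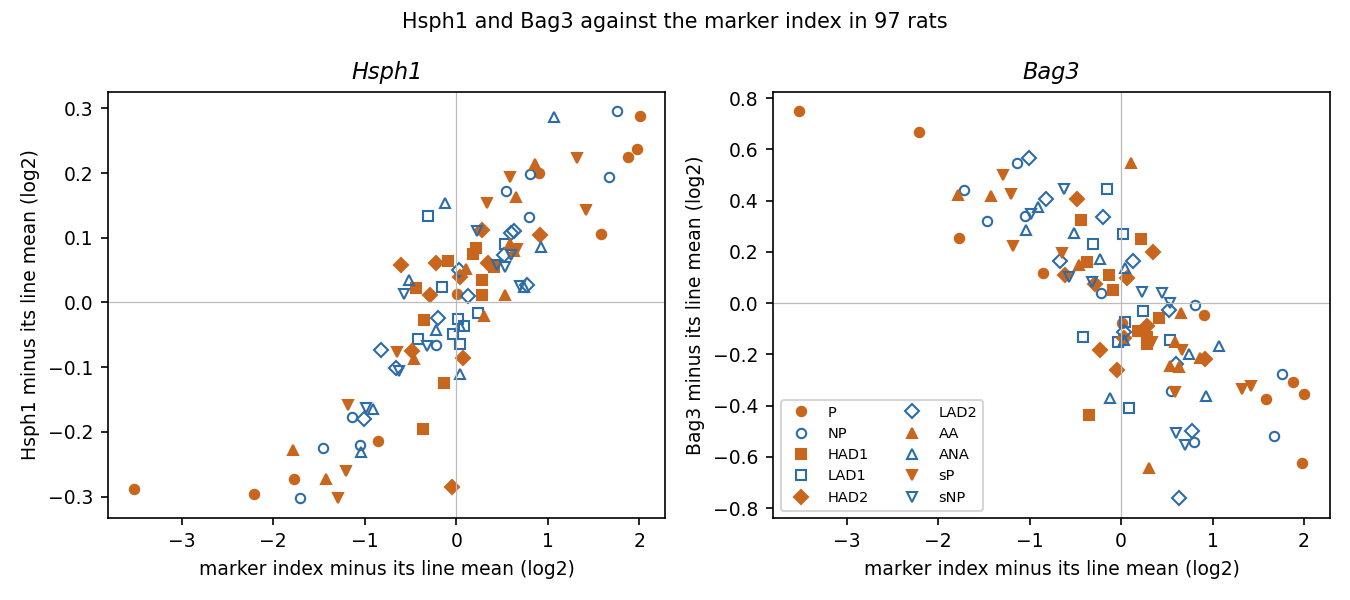
Hsph1 (left) and Bag3 (right) against the marker index in 97 rats, both axes in log2 units minus the line's mean; filled orange symbols are preferring and open blue symbols non-preferring lines. Hsph1 rises with the index (r = 0.864) and Bag3 falls (r = -0.779).

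Other genes of protein folding, outside the 80, were counted from 5 lists with 58 measured genes. With all arrays, none was called between P and NP (1.05% of all probe sets) or between HAD1 and LAD1 (1.2%). Without the arrays that stood apart, which favours calls, Timm44 fell between P and NP (-0.24, limma adjusted p = 0.0423). Between HAD1 and LAD1 Txndc5 then fell (-0.41, limma adjusted p = 0.00348). Sdf2l1 (0.24, limma adjusted p = 0.00826), Herpud1 (0.22, limma adjusted p = 0.0213) and Hsp90b1 (0.24, limma adjusted p = 0.0416) rose there. Of all genes, 1.96% and 3.5% were then called in these pairs. Between HAD2 and LAD2, where 4.6% of all probe sets were called, 1 rose, the disulfide isomerase Txndc5 (0.23 ± 0.047, limma adjusted p = 0.00287), and 3 fell, namely Hyou1, a reticulum partner of Hspa5 (-1.15 ± 0.28, limma adjusted p = 0.0169), Stub1 (-0.17) and Pdcl (-0.25). Between AA and ANA, with a background of 2.35%, only Txndc5 was called among the 58 with all arrays. It fell (-0.19 ± 0.048, limma adjusted p = 0.0295). Without the arrays that stood apart it was still called (-0.21, limma adjusted p = 0.0144). Clpp (0.28, limma adjusted p = 0.0154) was then called higher and Timm44 (-0.27, limma adjusted p = 0.0185) lower, where 3.85% of all genes were called.

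Between sP and sNP 8 of the 58 rose and 3 fell. Of 22 measured genes of reticulum folding and stress 5 rose, namely Herpud1 (0.24, limma adjusted p = 0.0113), Atf4 (0.43), Ddit3 (0.52), Ero1a (0.34) and Hyou1 (0.22), and Sil1 fell by 0.16. The list's median difference was 0.08, against 0.01 for all genes. Stip1, which links HSP70 to HSP90, rose by 0.19, the heat shock factor Hsf4 by 0.55 and the prefoldin Pfdn6 by 0.27, whereas the mitochondrial protease Clpp fell by 0.33 and the import receptor Tomm70 by 0.51. These calls belong to the same pair of lines, in which 12.9% of all probe sets were called and the marker index differed. Without the arrays that stood apart, Stub1 (0.21, limma adjusted p = 0.0367) and Pdcl3 (0.36, limma adjusted p = 0.0383) were also called higher. Stip1 was then not called (0.21, limma adjusted p = 0.0502).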

How the data were processed

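RNA of the nucleus accumbens shell from 97 rats was labelled in 2 cycles from 25 ng and hybridised to 1 Affymetrix array per rat, per the labels' protocols. The deposited values are log2 signals made by the authors with RMA, per the submitters' processing notes, with array medians of 7.82 to 8.02, and were used as deposited. RMA scales the arrays to one another, so that a shift of all probes in a line is removed. The number of arrays limits the precision. Genes were named from the platform annotation. Of 31099 probe sets, 57 controls were left out, 20826 had 1 symbol, 436 several and 9780 none.

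Lines were compared in limma 3.58.1 (R 4.3.3), 1 fit per pair, with Benjamini-Hochberg adjustment over 31042 probe sets. One fit of all lines gave the average and the F test over pairs. Correlations used Python 3.11.15, numpy 2.4.6 and scipy 1.17.1. Fits were tested on simulated data.

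The members and lists were chosen with earlier results of these data known. Genes named are those called in a pair or on average, a set of known chaperones (Hspa1a, Hspa5, Hspa9, Hspa4, Hspb1, Hspd1, Hspe1, Hsph1, Dnajb1, Dnaja1, Bag3, Pdia3 and Cct2, with Hspa8 and Hspa1b not measured by a set of their own), the 3 brightest and dimmest, and the largest differences where none was called. Other genes named, among them Dnajc11, Dnajc18, Pdia5 and the animals singled out for Hspa1a, were chosen after their values were seen. Alternatives were the mean of a gene's probe sets, centred arrays, a filter on dim probe sets, trended and robust moderation, 1 fit of 10 lines, covariates for the Gapdh difference and the marker index, the animal number as a block, and arrays left out.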

Additional observations from a re-analysis of the deposited data

Results flagged for a closer look

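In 190 sets of 9 or 10 animals of a line, 12 had an animal far from the others by Dixon's criterion, which chance meets in about 1 of 20. Of these, 5 were low animals. Hsph1 stood at 13.31 in HAD2 5 (nearest other 13.5), Dnajb14 at 9.76 in sP 9 (10.16), Hspb1 at 6.59 in LAD2 18 (7.103), and Pdia2 at 5.41 in NP 2 (5.685) and 5.21 in sNP 4 (5.43). High animals were found for the other 7. Bag2 stood at 8.83 in LAD1 33 (8.539), Cct6a at 12.02 in sP 8 (11.95), Dnajc6 at 12.89 in ANA 4 (12.73) and Dnajc21 at 6.87 in HAD1 25 (6.364) and 6.62 in LAD1 39 (6.23). The dimmer Hspa9 probe set stood at 8.69 in HAD2 5 (8.149) and at 9.07 in ANA 20 (7.146).

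The differences of 9 brightest and 2 dimmer probe sets were unequal over the 5 pairs by limma's F test. Adjusted p-values were 4.24e-12 for the dimmer Hspa9 set, 0.000266 for Cct6a, 0.000641 for Dnajc18, 0.000996 for Pdia5, 0.00203 for Dnajb3, 0.0096 for a dimmer Dnajc11 set, 0.0201 for Hspa14, 0.0338 for the brightest Dnajc11 set, 0.0395 for Bag2, 0.042 for Hspa1a and 0.0445 for Dnajb14. Bag2 differed by 0.23 for sP minus sNP and by between -0.17 and -0.03 in the other pairs. Hspa14 differed by -0.22 for sP minus sNP and by between 0.02 and 0.09 in the other pairs. Dnajc11 differed by -0.21 for P minus NP and by between -0.05 and 0.06 in the other pairs.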

How the results depend on the processing

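The differences of genes called in a pair or on average, of the dimmer Hspa9 set and of the largest changes in pairs without a call were recomputed under each alternative, and none of these reversed. Other named genes were not all recomputed, and differences near 0 can change sign: the average of Hspa14 was -0.0056, and 0.0054 without the arrays that stood apart. Shares in brackets are of all probe sets or, for gene means and without the arrays that stood apart, of all genes. Between P and NP 1 chaperone was called (1.05%), against 3 with arrays centred on their medians (1.13%), 2 with the dimmest 30% left out (1.45%), 3 in 1 fit of 10 lines (2.45%), 0 with the Gapdh covariate (0.58%), 5 with the marker index (2.88%) and 3 without the arrays that stood apart (1.96%). Between HAD1 and LAD1 the count of 0 became 2 in 1 fit of 10 lines (2.39%) and 1 without the arrays that stood apart (3.5%). Between HAD2 and LAD2 the count of 0 became 3 with gene means (4.68%), 1 with centred arrays (4.64%), 2 with the dimmest left out (6.21%), 4 in 1 fit of 10 lines (4.8%), 2 with the Gapdh covariate (5.58%) and 3 with the marker index (5.89%). Between AA and ANA the count of 1 became 2 in 1 fit of 10 lines (3.35%) and 4 without the arrays that stood apart (3.85%). Between sP and sNP the count of 12 became 0 with the Gapdh covariate (2.78%) and 0 with the marker index (0.931%), and lay between 8 (10.4% in 1 fit of 10 lines) and 15 (17.7% without the arrays that stood apart) under the other settings without a block. The cause of these changes was not tested. The average called 3 under each alternative, and the F test 7 to 11. Leaving out 1 animal gave 1 to 4 calls between P and NP (4 without NP 9, 2 without NP 2 or P 8), 0 to 1 between HAD1 and LAD1 (1 without HAD1 25 or LAD1 37), 0 to 2 between HAD2 and LAD2 (2 without HAD2 10), 1 to 3 between AA and ANA (3 without ANA 20, 2 without AA 5 or AA 19) and 3 to 20 between sP and sNP (3 without any of sNP 1, 3 or 9 or sP 2, 5, 8 or 9, 4 without sNP 5, 6 without sNP 6 or 7, and 20 without sP 3). Only P with NP and sP with sNP have animal numbers in common, and same-numbered animals correlated at -0.591 to 0.774 and at -0.22 to 0.56. They share only a number. With the replicate number as a block, 2 were called between P and NP (0.635%) and 18 between sP and sNP (16.2%). No paired analysis was possible for the other 3 pairs because their lines share no animal numbers. Line means taken without the arrays that stood apart, an alternative chosen after seeing the data, also gave 0 calls with the line pairs as replicates.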
